A study of Gallus gallus with 6 samples.

Results

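Solute carriers are membrane proteins that move sugars, amino acids, ions, metals, vitamins and metabolites across the plasma membrane or into organelles, and they are named by family number and member. The genes described here are those whose symbol in the deposited table starts with SLC and a family number, organic anion SLCO symbols excluded, and which had at least 10 raw counts in at least 3 of the 6 libraries. The table listed 253 such symbols among 17262 genes. Of these, 198 met the count rule, across 43 families and 31 chromosomes or scaffolds, and 55 lay below it. The rule used abundance only and not the difference between time points.

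Wounded chick lens explants were sequenced at 1 h in culture after wounding (3 libraries) and at time 0, directly after wounding (3 libraries). The donors were chick embryos of embryonic day 14 with no genetic change or drug, and each library came from a pool of 6 explants. In this ex vivo model of cataract surgery the fiber cell mass is taken out, and the explant is what stays attached to the lens capsule, chiefly lens epithelium with its resident immune cells. The 1 h explants had also spent that hour in a serum-containing medium. For that time point the study's methods further describe cuts into the equatorial epithelium and flattening on a culture substrate. Time after wounding, this handling and culture therefore cannot be told apart.

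The lens has no blood vessels and takes up glucose, amino acids and antioxidant precursors from the fluid around it. Its epithelium is the main site of this uptake: facilitative glucose transporters bring in sugar, monocarboxylate carriers let out lactate, and sodium-coupled carriers accumulate amino acids, taurine and ascorbate. Ion cotransporters and exchangers hold cell volume and pH, which the clarity of the tissue depends on.

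Libraries held between 13733581 and 17673955 counts over all genes, and 3 counts, used as the detection floor, corresponded to 0.175 to 0.196 CPM (counts per 1000000 after scaling for library composition) at 1 h and 0.194 to 0.221 CPM at time 0. Markers of lens epithelium summed to between 4073 and 4257 CPM at 1 h and between 3880 and 3995 CPM at time 0. Of the 9 tested, 5 rose, with a median log2 fold change of 0.32 over the list, and 1 fell, GJA1, which at 2248 CPM at 1 h and 2624 CPM at time 0 made up most of the sum. Lens fiber markers, crystallins among them, summed to between 64350 and 69880 CPM at 1 h and between 87480 and 93180 CPM at time 0, and 15 of the 17 tested fell, with 0 higher. The crystallins ASL1, CRYBA2 and CRYBB2 made up most of this sum, with 23572, 21568 and 13440 CPM at 1 h and 33347, 28039 and 17024 CPM at time 0. Bulk samples do not show which cells held these transcripts. No fiber marker was at 0 in all libraries. Fewer fiber cells and less fiber RNA per cell cannot be told apart in such bulk samples, and the part of the epithelial and fiber marker differences in the results below was not tested. Resident immune cell markers summed to only 5.81 to 9.60 CPM at 1 h and 4.78 to 7.18 CPM at time 0, and 3 of the 12 in the table had enough counts to be tested.

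The most abundant solute carriers were those of nutrient uptake and mitochondrial energy exchange. Levels between genes are given as RPKM, the CPM value divided by the listed gene length in kilobases. SLC7A5, the light chain of a heteromeric exchanger for large neutral amino acids, stood highest at both time points, with 889 ± 84.2 RPKM at 1 h and 1006 ± 18.3 RPKM at time 0 (SD, n = 3 each, as for all values with ± below). SLC2A1, the facilitative glucose transporter GLUT1, was next, with 690 ± 14.3 RPKM at 1 h and 666 ± 56.2 RPKM at time 0. The mitochondrial phosphate carrier SLC25A3 had 413 ± 15.1 RPKM at 1 h and 371 ± 11.8 RPKM at time 0.

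Behind these came SLC25A6, an adenine nucleotide translocase of the inner mitochondrial membrane, with 348 ± 9.78 RPKM at 1 h and 346 ± 14.8 RPKM at time 0. SLC16A1, the lactate and pyruvate carrier MCT1, had 246 ± 4.70 RPKM at 1 h and 276 ± 11.3 RPKM at time 0. The zinc transporter SLC30A4 had 138 ± 4.10 RPKM at 1 h and 142 ± 8.38 RPKM at time 0. Among these 6 carriers the order of the 1 h means was the order of the time 0 means, and SLC25A3 and SLC25A6 lay within 1 SD of each other at neither time point. None of the 6 passed the test between time points.

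2 carriers moved up this order. SLC38A2, a sodium-coupled transporter of small neutral amino acids, held rank 3 at 1 h with 689 ± 36.4 RPKM, within 1 SD of SLC2A1, and rank 6 at time 0 with 227 ± 18.6 RPKM. SLC6A6, the taurine transporter, held rank 5 at 1 h with 360 ± 69.6 RPKM, within 1 SD of SLC25A3 and SLC25A6, and rank 7 at time 0 with 199 ± 27.2 RPKM. The 5 highest members together held 48.8 ± 1.43% of the summed RPKM of the 198 members at 1 h and 47.0 ± 0.602% at time 0. The median member stood at 6.84 RPKM over the 6 libraries and the lowest at 0.178 RPKM, so the class spans a wide range of levels. The 198 members took 1.99 ± 0.011% of the scaled counts at 1 h and 1.71 ± 0.020% at time 0. In CPM their sum was 19845 ± 113 at 1 h and 17073 ± 198 at time 0, and without SLC38A2 it was 16269 ± 283 at 1 h and 15896 ± 235 at time 0.

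**Figure D1:**
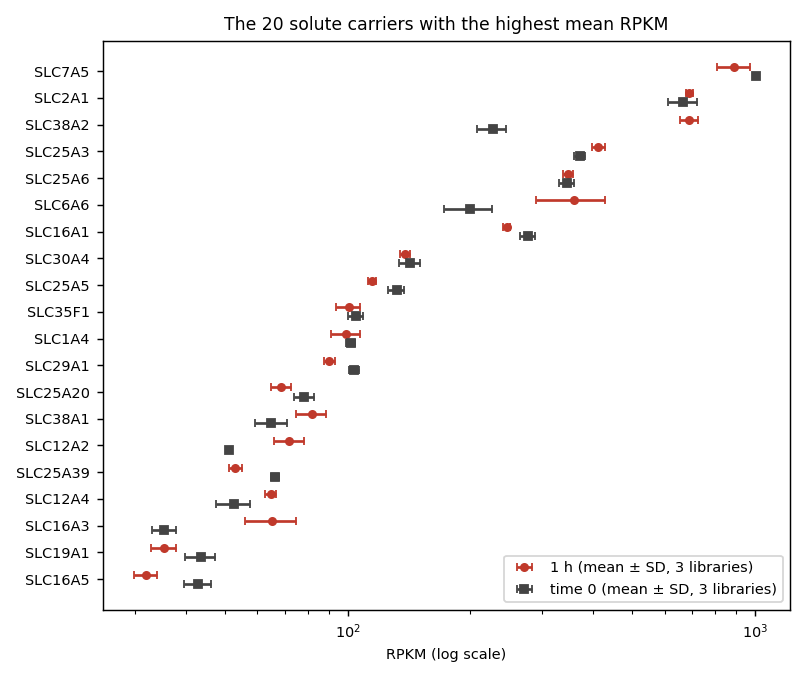
Level of the 20 solute carriers with the highest mean RPKM (log axis), as mean and SD of 3 libraries at 1 h (circles) and 3 at time 0 (squares). SLC7A5 leads at both time points, and SLC38A2 has the widest gap between them, with 689 RPKM at 1 h and 227 RPKM at time 0.

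Within 1 h of wounding, transcripts of 37 members rose and those of 19 fell among the 196 tested (edgeR's quasi-likelihood test, adjusted p under 0.05). Leaving out the 4 genes that only share an SLC symbol, named below, 37 of 192 rose (19.3%) and 17 fell (8.85%). SLC38A2 and SLC6A6 were the abundant members that rose. The mitochondrial carriers SLC25A37 and SLC25A25 and the orphan SLC35E4 had some of the highest fold changes. None of the falls reached 2-fold in this fit, although SLC5A1 was close, with a log2 fold change of -0.97. As shares the calls were 18.9% higher and 9.69% lower, against 19.8% and 12.0% of all 12391 genes tested, and 28.6% of members against 31.8% of all genes in either direction. The shares of called members were thus near those of genes at large, and no departure of the class as a whole is read from them. The median log2 fold change of members was 0.03, against -0.01 over all genes tested, and 107 of the 196 lay within 0.25 of 0. SLC16A10 and SLC24A4 were too low to be tested.

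The split depended on the scaling. Upper-quartile scaling, which shifted the all-gene median to -0.14 on the log2 scale, called 30 members higher and 45 lower, and scaling to library totals, with a median of -0.05, called 37 higher and 34 lower. Of all 12391 genes tested, upper-quartile scaling called 1901 higher and 3400 lower, and library totals 2201 and 2016. Without time 0 replicate 1 the lower count of members dropped to 10, and without time 0 replicate 3 to 12, while the higher count was 31 and 33. The lower count over all genes dropped too, to 1035 of 12652 tested and 1162 of 12641, with 2068 and 2102 higher. These shifts were thus not particular to solute carriers. 28 members were called higher and 7 lower in each of the 11 alternative fits (DESeq2, both scalings, no filter, a replicate block and each library left out), and 25 of those higher had not entered through their 1 h counts alone.

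Rises were larger than falls in this fit, and rises of at least 2-fold also outnumbered such falls among all genes tested. Among called members the median size of the log2 fold change was 0.75 for those that rose and 0.39 for those that fell, and 0.73 for those that rose without the members that entered only through their 1 h counts (named below). 10 members (5.10%) rose at least 2-fold, against 6.46% of all genes, and 0 fell at least 2-fold by edgeR or DESeq2, against 0.775% of all genes by edgeR, although 34 members were lower at an unadjusted p under 0.05. That 0 is not firm, because the log2 fold change of SLC5A1 ran from -1.22 to -0.85 with a library left out. Without the members that entered through 1 h only, 6 of 192 (3.12%) rose at least 2-fold. All 1 h libraries lay above all time 0 libraries for 48 members (24.5%, against 25.4% of genes) and below them for 41 (20.9%, against 21.4%). Members that rose had a median level of 9.58 RPKM and those that fell 8.18 RPKM, against 6.15 RPKM for those not called.

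5 members met the count rule only through their 1 h libraries and so had to be higher at 1 h to be included: SLC9A2, SLC6A17, SLC7A11, SLC17A9 and SLC16A10. Their differences are given as values and are not counted as support. Without them, 33 of 192 tested members rose (17.2%), 19 fell (9.90%) and the median log2 fold change was 0.01. Just inside the rule stood SLC16A10 with 10, 17 and 17 counts at 1 h and 5, 7 and 4 at time 0, SLC24A4 with 16, 10 and 11 at 1 h and 9, 11 and 4 at time 0, and SLC9A3 with 13, 8 and 6 at 1 h and 3, 18 and 10 at time 0. Just outside it stood SLC4A10 with 20, 8 and 18 counts at 1 h and 7, 3 and 5 at time 0, and SLC27A6 with 9, 5 and 10 at 1 h and 5, 13 and 6 at time 0.

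**Figure D2:**
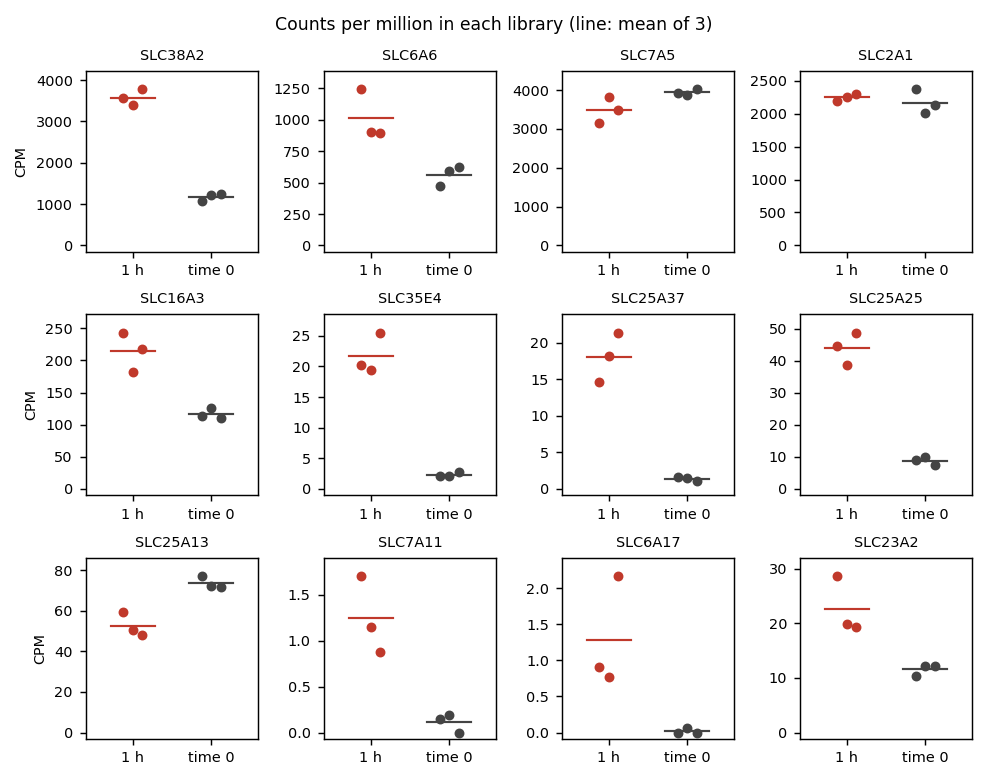
CPM of 12 solute carriers in each library, with the 3 libraries at 1 h left of the 3 at time 0 in each panel and the bar at their mean. SLC38A2 lies between 3399 and 3775 CPM at 1 h and between 1066 and 1236 CPM at time 0, while SLC2A1, between 2198 and 2291 CPM at 1 h and between 2009 and 2367 CPM at time 0, overlaps.

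Carriers of amino acids and peptides had 9 of 29 tested members higher (31.0%) and 2 lower (6.90%), against 19.8% and 12.0% of all genes. The median log2 fold change was 0.08. At an unadjusted p under 0.05 there were 11 higher and 4 lower, and DESeq2 also called 9 and 2. Upper-quartile scaling called 8 higher and 6 lower, and 1901 and 3400 of all 12391 genes. SLC6A17 and SLC7A11, 2 of the 9, entered only through their 1 h counts. The rises were led by SLC38A2 and the SLC6 family, both sodium-coupled.

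SLC38A2 (ENSGALG00000008497, chromosome 1, 31106674 to 31121733) had 3556, 3399 and 3775 CPM in the 1 h libraries, against 1066, 1230 and 1236 CPM in the time 0 libraries. The lowest 1 h library was thus far above the highest time 0 library. It rose 3.04-fold, a log2 fold change of 1.60 (SE 0.08, edgeR adjusted p = 3.52e-08), and no other carrier among the 6 highest at 1 h changed as much. SLC38A1, a paralog that lies 23965 bases away on the same chromosome, had 203, 229 and 196 CPM at 1 h and 150, 179 and 172 CPM at time 0. It rose by 0.33 on the log2 scale (SE 0.09, edgeR adjusted p = 0.0139). That call was lost without 1 h replicate 2 (edgeR adjusted p = 0.0707), without time 0 replicate 1 (0.0602) and with upper-quartile scaling (0.0967). SLC38A6, a lower member, had 12.7, 13.0 and 11.3 CPM at 1 h and 5.53, 7.24 and 8.65 CPM at time 0, a rise of 0.78 (SE 0.17, edgeR adjusted p = 0.00435).

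The SLC38 family as a whole summed to 3983 ± 169 CPM at 1 h and 1546 ± 111 CPM at time 0, a ratio of 2.58 that SLC38A2 made up for the most part. 3 of its 8 members rose and 0 fell, against 19.8% and 12.0% of all genes, with 1 lower at an unadjusted p under 0.05 and 0 lower by DESeq2.

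SLC6A6, which concentrates the osmolyte taurine, had 1241, 906 and 896 CPM at 1 h and 475, 589 and 622 CPM at time 0. One 1 h library stood above the other pair, yet all were above every time 0 library, and the log2 fold change was 0.85 (SE 0.15, edgeR adjusted p = 0.00222). SLC6A9, the glycine transporter GLYT1, had 71.6, 60.1 and 48.6 CPM at 1 h and 36.1, 32.7 and 38.4 CPM at time 0, a rise of 0.75 (SE 0.13, edgeR adjusted p = 0.00136). SLC6A15, a carrier of branched-chain amino acids and proline, had 16.1, 21.0 and 12.0 CPM at 1 h and 8.63, 9.89 and 9.24 CPM at time 0, a rise of 0.82 (SE 0.19, edgeR adjusted p = 0.00609).

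The fourth SLC6 member that rose, SLC6A17, a vesicular carrier of neutral amino acids in mammals, was close to the detection floor, with 14, 12 and 37 counts at 1 h and 0, 1 and 0 at time 0. Its counts gave a ratio of 58.0 with an exact 95% interval of 10.0 to 2327, which covers counting error only. Family SLC6 had 4 of 6 members higher and 0 lower, by DESeq2 and at an unadjusted p under 0.05 as well. Of all genes tested, 19.8% were higher and 12.0% lower. The family summed to 1099 ± 206 CPM at 1 h and 614 ± 78.5 CPM at time 0. SLC6A17 is 1 of those 4 and entered only through its 1 h counts.

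Cationic amino acid transporter SLC7A1 (CAT1) had 43.7, 49.0 and 34.9 CPM at 1 h and 32.1, 28.8 and 29.5 CPM at time 0, a rise of 0.50 (SE 0.12, edgeR adjusted p = 0.00756). SLC7A3, its paralog, had 181, 163 and 165 CPM at 1 h and 124, 134 and 164 CPM at time 0. These groups overlapped and the difference of 0.27 did not pass (edgeR adjusted p = 0.0595), although it did without time 0 replicate 3 (0.00876). SLC7A3 overlaps SNX12 on the same strand, so reads could be shared. SLC7A11, the cystine and glutamate exchanger that supplies cysteine for glutathione, had 26, 18 and 15 counts at 1 h and 2, 3 and 0 at time 0, a ratio of 10.9 with an exact 95% interval of 4.40 to 34.7. That interval covers counting error only, and SLC7A11 had to be higher at 1 h to meet the count rule.

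The most abundant carrier, SLC7A5, had 3152, 3813 and 3496 CPM at 1 h and 3937, 3876 and 4019 CPM at time 0. Every 1 h library was below every time 0 library, but the difference, -0.18 on the log2 scale (SE 0.08), did not pass (edgeR adjusted p = 0.118), and it passed with upper-quartile scaling (0.00942) and with library totals (0.0373). SLC1A4, an exchanger of alanine, serine and cysteine, differed by -0.04 with overlapping groups (edgeR adjusted p = 0.741).

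The members of this group that fell were SLC15A4 and SLC36A1. SLC15A4, which exports histidine and peptides from lysosomes, had 43.7, 44.4 and 46.9 CPM at 1 h and 59.9, 59.8 and 51.2 CPM at time 0, and its log2 fold change was -0.34 (SE 0.08, edgeR adjusted p = 0.00933). SLC36A1, a proton-coupled exporter of small amino acids, had 7.64, 7.98 and 6.13 CPM at 1 h and 11.3, 9.57 and 10.2 CPM at time 0, with a log2 fold change of -0.51 (SE 0.16, edgeR adjusted p = 0.0264). The SLC36A1 call was lost without 1 h replicate 3 (edgeR adjusted p = 0.0915), time 0 replicate 1 (0.0893) or time 0 replicate 3 (0.0626).

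Sugar and monocarboxylate carriers had 6 of 25 tested members higher and 2 lower, against 19.8% and 12.0% of all genes. Their median was 0.04. At an unadjusted p under 0.05 the counts were 7 and 4, and DESeq2 called 7 and 3. Upper-quartile scaling called 5 higher and 6 lower, and 1901 and 3400 of all 12391 genes. The lactate exporter of glycolytic cells rose, while the main glucose carrier overlapped between the time points.

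SLC2A1 (ENSGALG00000004889, chromosome 21, 6460791 to 6475374) had 2198, 2248 and 2291 CPM at 1 h and 2367, 2009 and 2127 CPM at time 0. The time 0 libraries enclosed those at 1 h, and the difference of 0.05 did not pass (SE 0.08, edgeR adjusted p = 0.655) and turned to -0.08 with upper-quartile scaling. SLC2A12, the glucose transporter GLUT12, had 67.1, 75.0 and 70.4 CPM at 1 h and 62.2, 52.9 and 58.3 CPM at time 0, a rise of 0.29 (SE 0.08, edgeR adjusted p = 0.0177). That call was lost without 1 h replicate 2 or 3, without time 0 replicate 2 or 3 (edgeR adjusted p from 0.0506 to 0.0872) and with upper-quartile scaling (0.137). SLC2A12 overlaps SGK1 on the same strand. SGK1 had 1643, 2125 and 3808 counts at 1 h and 11, 16 and 11 at time 0, so the SLC2A12 value is uncertain, because reads from SGK1 could have been counted for it, and this was not tested.

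SLC2A11L1, whose symbol marks it as like the neighbouring sugar carrier SLC2A11, had 45.6, 21.1 and 20.6 CPM at 1 h and 3.91, 6.01 and 4.39 CPM at time 0. The log2 fold change was 2.60 (SE 0.41, edgeR adjusted p = 0.00446), with 1 h replicate 1 above the other 1 h libraries. SLC2A11 lies 1939 bases away on chromosome 15 and had 9.92, 6.64 and 6.13 CPM at 1 h and 1.77, 5.76 and 2.56 CPM at time 0, a difference of 1.15 that did not pass (edgeR adjusted p = 0.0543) but did by DESeq2 (adjusted p = 0.00832) and without time 0 replicate 2 (edgeR adjusted p = 0.00167). Reads may be shared between these similar neighbours, so the 2 values may not be independent.

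SLC16A3 (MCT4), the carrier that exports lactate from glycolytic cells, had 243, 182 and 219 CPM at 1 h and 113, 126 and 111 CPM at time 0. It rose 1.84-fold, by 0.88 on the log2 scale (SE 0.10, edgeR adjusted p = 4.93e-05), with a wide gap between the groups. SLC16A1 (MCT1) had 989, 1011 and 973 CPM at 1 h and 1159, 1068 and 1118 CPM at time 0, and its log2 fold change of -0.17 did not pass (SE 0.07, edgeR adjusted p = 0.0781). It passed as lower by DESeq2 (adjusted p = 0.0321), with upper-quartile scaling (edgeR adjusted p = 0.00417) and with library totals (0.0192). Per length SLC16A1 stood above SLC16A3 at both time points, with 246 RPKM beside 65.4 RPKM at 1 h and 276 RPKM beside 35.5 RPKM at time 0.

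SLC16A12, a creatine transporter whose human gene is mutated in juvenile cataract, had 75.8, 67.6 and 60.7 CPM at 1 h and 41.4, 46.8 and 49.7 CPM at time 0, a rise of 0.56 (SE 0.10, edgeR adjusted p = 0.00102). SLC16A6, another member of that family, rose by 0.62 (SE 0.18, edgeR adjusted p = 0.0205) and overlaps ARSG on the opposite strand. Its call was lost without 1 h replicate 1, time 0 replicate 1 or time 0 replicate 3 (edgeR adjusted p from 0.0591 to 0.0814). SLC45A3, a member of a family of putative sugar carriers, rose by 0.74 (SE 0.18, edgeR adjusted p = 0.00754) with 7.25, 6.32 and 7.01 CPM at 1 h and 4.20, 4.40 and 3.74 CPM at time 0. SLC16A5, a monocarboxylate carrier, fell, with 57.5, 57.3 and 64.3 CPM at 1 h and 86.5, 79.5 and 74.2 CPM at time 0, a log2 fold change of -0.42 (SE 0.08, edgeR adjusted p = 0.00220). It overlaps JPT1 and an unnamed gene on the opposite strand.

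SLC5A1, the sodium-glucose cotransporter SGLT1, had the lowest log2 fold change of the 196 members tested, -0.97 (SE 0.26, edgeR adjusted p = 0.0151). Its level was low, with 3.66, 2.43 and 2.34 CPM at 1 h and 6.27, 6.34 and 3.87 CPM at time 0. The call was lost without 1 h replicate 3 (edgeR adjusted p = 0.0524), time 0 replicate 1 (0.0576) or time 0 replicate 2 (0.0606). The pigment cell carrier SLC45A2 had 2.02, 4.15 and 4.85 CPM at 1 h and 4.57, 4.98 and 5.24 CPM at time 0, with overlapping groups and no call (edgeR adjusted p = 0.276). Pigmented epithelium markers summed to 1.64 to 2.35 CPM at 1 h and 1.77 to 3.34 CPM at time 0.

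Inorganic ion carriers had 7 of 26 tested members higher (26.9%) and 0 lower, against 19.8% and 12.0% of all genes. Their median was 0.13. At an unadjusted p under 0.05 there were 9 higher and 2 lower, and DESeq2 called 5 higher and 0 lower. Upper-quartile scaling called 4 higher and 3 lower, and 1901 and 3400 of all 12391 genes, so the 0 lower depended on the scaling. SLC9A2, 1 of the 7, entered only through its 1 h counts. The others that rose carry bicarbonate, chloride with cations, phosphate and sodium against calcium.

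SLC12A2, the sodium-potassium-chloride cotransporter NKCC1 that brings salt into cells, had 252, 297 and 264 CPM at 1 h and 195, 192 and 191 CPM at time 0. It rose by 0.49 on the log2 scale (SE 0.08, edgeR adjusted p = 4.16e-04). SLC12A4, the potassium-chloride cotransporter KCC1 that lets salt out, had 238, 252 and 239 CPM at 1 h and 177, 201 and 213 CPM at time 0, a rise of 0.30 (SE 0.08, edgeR adjusted p = 0.0131). The SLC12A4 call was lost without 1 h replicate 2 (edgeR adjusted p = 0.0583), without time 0 replicate 1 (0.0534) and with upper-quartile scaling (0.116). All 4 SLC12 members had positive log2 fold changes, 2 of them called, against 19.8% of all genes called higher. The family summed to 520 ± 32.4 CPM at 1 h and 395 ± 16.9 CPM at time 0.

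SLC4A7, a sodium-bicarbonate cotransporter that takes in base, had 79.8, 61.5 and 62.5 CPM at 1 h and 32.2, 41.5 and 37.2 CPM at time 0, a rise of 0.88 (SE 0.12, edgeR adjusted p = 2.18e-04). SLC4A4, another sodium-bicarbonate cotransporter, lay near 1 CPM with overlapping groups (log2 fold change 0.16, edgeR adjusted p = 0.785). SLC4A8, which exchanges chloride for sodium and bicarbonate, had 3.20, 3.89 and 3.97 CPM at 1 h and 2.43, 2.33 and 1.90 CPM at time 0, a rise of 0.73 (SE 0.24, edgeR adjusted p = 0.0336). That call was lost under 8 of 11 alternatives, among them DESeq2 (adjusted p = 0.0922) and the omission of any library but 1 h replicate 1 (edgeR adjusted p from 0.0525 to 0.114).

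SLC20A1, a sodium-phosphate cotransporter, had 34.5, 39.3 and 33.4 CPM at 1 h and 22.1, 24.6 and 24.1 CPM at time 0, a rise of 0.60 (SE 0.10, edgeR adjusted p = 5.79e-04). It overlaps NT5DC4 on the same strand. SLC24A3, a potassium-dependent sodium-calcium exchanger, rose by 0.37 (SE 0.11, edgeR adjusted p = 0.0249) with 18.5, 16.2 and 17.7 CPM at 1 h and 13.6, 13.8 and 13.1 CPM at time 0. The SLC24A3 call was lost by DESeq2 (adjusted p = 0.0727), with upper-quartile scaling (edgeR adjusted p = 0.109) and without 1 h replicate 1 or 3 or time 0 replicate 1 or 3 (edgeR adjusted p from 0.0552 to 0.0884). SLC9A2, a sodium-proton exchanger, had 12, 43 and 47 counts at 1 h and 3, 0 and 4 at time 0, a ratio of 13.4 with an exact 95% interval of 6.28 to 34.2. That interval covers counting error only and not the spread between libraries, and SLC9A2 had to be higher at 1 h to meet the count rule. SLC24A5, known from pigment cells, had 15.9, 17.4 and 13.7 CPM at 1 h and 13.9, 18.6 and 19.9 CPM at time 0, which overlapped (edgeR adjusted p = 0.446). Of the anion exchanger family SLC26, 0 of 5 members passed in either direction by edgeR or DESeq2, and 2 were lower at an unadjusted p under 0.05. By edgeR 31.8% of all genes passed, so with 5 members no trait of the family is read from the 0.

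Metal carriers had 2 of 24 members higher (8.33%) and 3 lower (12.5%), against 19.8% and 12.0% of all genes. Their median was -0.05, and DESeq2 gave the same counts. 2 were higher and 4 lower at an unadjusted p under 0.05. Upper-quartile scaling called 2 higher and 5 lower, and 1901 and 3400 of all 12391 genes. The magnesium carrier SLC41A1 had 26.7, 22.0 and 20.5 CPM at 1 h and 13.9, 12.8 and 12.3 CPM at time 0, a rise of 0.83 (SE 0.13, edgeR adjusted p = 3.84e-04), and it overlaps PM20D1 on the same strand. SLC30A1, the zinc exporter of the plasma membrane, had 34.0, 38.9 and 40.4 CPM at 1 h and 24.3, 28.9 and 27.7 CPM at time 0, a rise of 0.49 (SE 0.10, edgeR adjusted p = 0.00311). The other members that export zinc from the cytosol, family SLC30, were not called, the abundant SLC30A4 among them (501, 473 and 480 CPM at 1 h, 523, 508 and 466 CPM at time 0, edgeR adjusted p = 0.690).

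The high-affinity copper importer SLC31A1 fell, with 53.1, 56.4 and 56.5 CPM at 1 h and 70.9, 69.3 and 65.4 CPM at time 0, a log2 fold change of -0.31 (SE 0.07, edgeR adjusted p = 0.00693). Family SLC39, which moves zinc into the cytosol, had 2 of 8 members lower and 0 higher, against 12.0% and 19.8% of all genes. There were 0 higher at an unadjusted p under 0.05 and 0 by DESeq2. SLC39A11 had a log2 fold change of -0.41 (SE 0.13, edgeR adjusted p = 0.0278), lost without 1 h replicate 2, 1 h replicate 3 or time 0 replicate 2 (edgeR adjusted p from 0.0522 to 0.111). SLC39A3 had a log2 fold change of -0.46 (SE 0.15, edgeR adjusted p = 0.0311), lost without 1 h replicate 1 or 2 or time 0 replicate 1 or 2 (edgeR adjusted p from 0.0680 to 0.107), and it overlaps SGTA on the same strand. SLC39A14, SLC11A2 and the iron exporter SLC40A1, all carriers of iron, had overlapping groups and no call, with edgeR adjusted p of 0.308, 0.507 and 0.768.

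Mitochondrial carriers form family SLC25, the largest here. Of 34 members, 5 rose (14.7%) and 6 fell (17.6%), against 19.8% and 12.0% of all genes. The median was -0.03, and DESeq2 gave the same counts. At an unadjusted p under 0.05 there were 8 higher and 11 lower. Upper-quartile scaling called 5 higher and 12 lower, and 1901 and 3400 of all 12391 genes. The family summed to 2795 ± 62.8 CPM at 1 h and 2740 ± 36.4 CPM at time 0.

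SLC25A37, mitoferrin-1, imports iron into mitochondria for heme and iron-sulfur clusters. It had 14.7, 18.3 and 21.4 CPM at 1 h and 1.62, 1.55 and 1.11 CPM at time 0, a 12.7-fold rise (log2 fold change 3.66, SE 0.21, edgeR adjusted p = 8.43e-08). SLC25A28, mitoferrin-2, which shares that role, had 31.8, 27.8 and 24.4 CPM at 1 h and 26.6, 24.8 and 26.7 CPM at time 0, with a difference of 0.10 that did not pass (SE 0.11, edgeR adjusted p = 0.494) and turned to -0.03 with upper-quartile scaling. In RPKM, SLC25A37 reached 17.8 at 1 h, beside 15.6 for SLC25A28, while at time 0 it stood at 1.40, beside 14.5 for SLC25A28. Blood cell markers summed to 30.0 to 55.3 CPM at 1 h and 30.4 to 32.4 CPM at time 0, with 0 of 4 tested called in either direction. ALAS2, a large part of this sum, had 389, 461 and 498 counts at 1 h and 371, 389 and 411 at time 0. The globin HBA1 had 309, 0 and 3 counts at 1 h and 29, 44 and 40 at time 0. The upper end of the sum at 1 h thus came from replicate 1. The part of blood cells in the SLC25A37 difference was not tested.

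SLC25A25 and SLC25A24, calcium-regulated carriers that exchange ATP-magnesium for phosphate, both rose. SLC25A25 had 44.5, 38.5 and 48.7 CPM at 1 h and 8.92, 10.1 and 7.34 CPM at time 0, a 4.99-fold rise (log2 fold change 2.32, SE 0.13, edgeR adjusted p = 8.43e-08). SLC25A24 had 40.5, 39.7 and 43.6 CPM at 1 h and 27.7, 26.5 and 29.0 CPM at time 0, a rise of 0.57 (SE 0.08, edgeR adjusted p = 2.90e-04). SLC25A36, which carries pyrimidine nucleotides, had 72.7, 84.5 and 79.0 CPM at 1 h and 39.7, 52.1 and 43.2 CPM at time 0, a rise of 0.81 (SE 0.10, edgeR adjusted p = 9.46e-05). SLC25A26, the importer of S-adenosylmethionine, rose by 0.44 (SE 0.09, edgeR adjusted p = 0.00271) and overlaps LRIG1 on the opposite strand.

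The mitochondrial carriers that fell include SLC25A13 (citrin), the aspartate and glutamate exchanger of the malate-aspartate shuttle. It had 59.5, 50.5 and 48.0 CPM at 1 h and 77.0, 72.4 and 71.9 CPM at time 0, a log2 fold change of -0.49 (SE 0.09, edgeR adjusted p = 0.00136). Its paralog SLC25A12, with the same exchange, had 22.1, 19.3 and 20.9 CPM at 1 h and 16.1, 19.4 and 19.2 CPM at time 0, and was not called (log2 fold change 0.19, edgeR adjusted p = 0.231).

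SLC25A46, an outer membrane protein tied to mitochondrial shape, had 13.3, 10.9 and 11.7 CPM at 1 h and 18.8, 16.6 and 16.6 CPM at time 0, a log2 fold change of -0.53 (SE 0.12, edgeR adjusted p = 0.00654). SLC25A39, needed for mitochondrial glutathione import, had 96.3, 102 and 95.5 CPM at 1 h and 125, 123 and 120 CPM at time 0, a log2 fold change of -0.32 (SE 0.07, edgeR adjusted p = 0.00331). The peroxisomal SLC25A17 had 23.4, 23.9 and 23.3 CPM at 1 h and 32.5, 28.2 and 31.8 CPM at time 0, a log2 fold change of -0.39 (SE 0.09, edgeR adjusted p = 0.00734). In each of these the time points were well separated.

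2 further falls were less firm. SLC25A5, an adenine nucleotide translocase, had a log2 fold change of -0.20 (SE 0.07, edgeR adjusted p = 0.0424), lost without 1 h replicate 2 or 3 or time 0 replicate 1 or 3 (edgeR adjusted p from 0.0918 to 0.131). Of the other translocases measured here, SLC25A6 had 1116, 1058 and 1105 CPM at 1 h and 1109, 1033 and 1118 CPM at time 0, a difference of 0.01 (edgeR adjusted p = 0.943). SLC25A4 had 56.7, 53.8 and 57.5 CPM at 1 h and 59.3, 52.1 and 58.8 CPM at time 0, a difference of -0.02 (edgeR adjusted p = 0.884). SLC25A32, a folate and flavin carrier, had a log2 fold change of -0.39 (SE 0.14, edgeR adjusted p = 0.0434), lost without 1 h replicate 2 or 3 or time 0 replicate 2 or 3 (edgeR adjusted p from 0.0842 to 0.174), and it overlaps DCAF13 on the opposite strand.

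**Figure D3:**
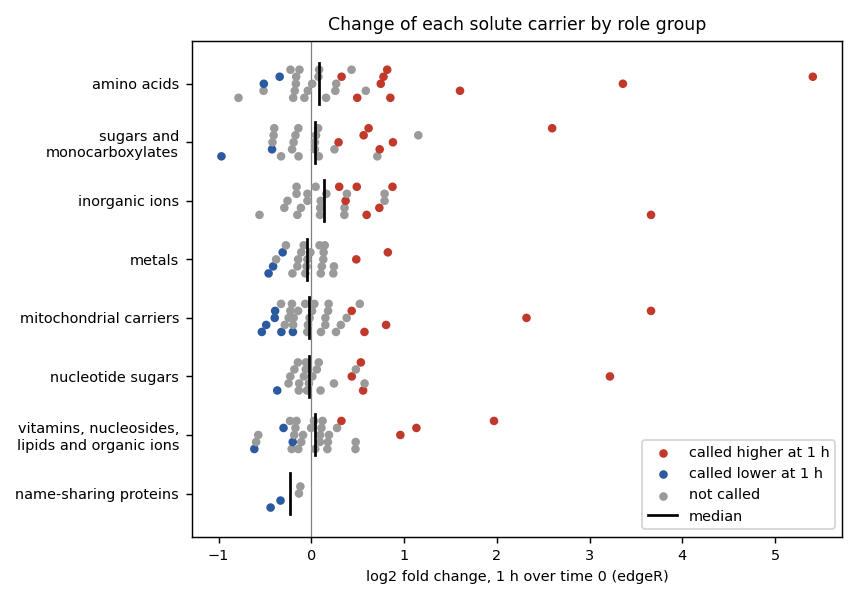
Fitted log2 fold change (1 h over time 0) of each tested member by role group, coloured by its call, with the median of each group as a bar. SLC49A3, in no role group and not called, is left out. Medians lie between -0.05 and 0.13 in the 7 transporter groups, and the points beyond 2 belong to single members such as SLC25A37 and SLC35E4.

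Carriers of nucleotide sugars and sugar phosphates in the secretory pathway had 4 of 23 members higher (17.4%) and 1 lower (4.35%). Of all genes tested, 19.8% were higher and 12.0% lower. The group median was -0.03, DESeq2 gave the same counts, and 5 were higher and 3 lower at an unadjusted p under 0.05. Upper-quartile scaling called 3 higher and 5 lower, and 1901 and 3400 of all 12391 genes. SLC35E4, an orphan member of the nucleotide sugar family, had 20.2, 19.3 and 25.5 CPM at 1 h and 2.06, 2.07 and 2.82 CPM at time 0. It rose 9.31-fold (log2 fold change 3.22, SE 0.18, edgeR adjusted p = 6.62e-08), far beyond the spread within either time point. SLC35D1, which carries UDP-glucuronic acid into the endoplasmic reticulum, rose by 0.44 (SE 0.12, edgeR adjusted p = 0.0130), a call lost without 1 h replicate 3 (0.0710) and with upper-quartile scaling (0.0543). SLC37A1 rose by 0.56 (SE 0.14, edgeR adjusted p = 0.0106) and SLC37A3 by 0.53 (SE 0.11, edgeR adjusted p = 0.00251), and both belong to a family of sugar phosphate carriers in which 2 of 4 members rose and 0 fell. SLC35A5 had a log2 fold change of -0.37 (SE 0.10, edgeR adjusted p = 0.0177), lost without 1 h replicate 3 (0.0592) or time 0 replicate 3 (0.0630). SLC35F1, at 101 ± 6.73 RPKM at 1 h and 105 ± 4.33 RPKM at time 0, was the most abundant of this group and was not called (edgeR adjusted p = 0.586).

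Vitamin, nucleoside, lipid and organic ion carriers had 4 of 30 members higher (13.3%) and 3 lower (10.0%), against 19.8% and 12.0% of all genes. The median was 0.04, DESeq2 called 3 and 3, and 5 and 4 passed at an unadjusted p under 0.05. SLC17A9, 1 of the 4 higher, entered only through its 1 h counts. SLC23A2, the sodium-coupled ascorbate transporter SVCT2, had 28.6, 19.8 and 19.3 CPM at 1 h and 10.4, 12.2 and 12.1 CPM at time 0, a 1.95-fold rise (log2 fold change 0.96, SE 0.16, edgeR adjusted p = 8.09e-04). One 1 h library was higher than the others, and all exceeded time 0. SLC22A15, of the organic ion family, had 4.11, 5.75 and 4.56 CPM at 1 h and 1.99, 2.20 and 2.36 CPM at time 0, a rise of 1.13 (SE 0.23, edgeR adjusted p = 0.00272). SLC27A3, of the fatty acid transport family, rose by 0.32 (SE 0.09, edgeR adjusted p = 0.0145), a call lost without time 0 replicate 1 (0.0602) and with upper-quartile scaling (0.0996). SLC17A9, the vesicular nucleotide transporter, had 16, 13 and 15 counts at 1 h and 7, 3 and 0 at time 0, a ratio of 4.05 with an exact 95% interval of 2.01 to 9.03, which covers counting error only. Its call (edgeR adjusted p = 0.0442) was lost in 7 of 11 alternatives, among them omission of any library other than time 0 replicate 1 (edgeR adjusted p from 0.0779 to 0.124) and DESeq2 (adjusted p = 0.0789).

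Folate and nucleoside carriers were among those that fell. The reduced folate carrier SLC19A1 had 76.7, 74.1 and 84.4 CPM at 1 h and 106, 90.1 and 93.6 CPM at time 0, a log2 fold change of -0.30 (SE 0.08, edgeR adjusted p = 0.0173), lost without 1 h replicate 2 (0.0574) or time 0 replicate 1 (0.0723). SLC29A1, the equilibrative nucleoside transporter ENT1, had 154, 155 and 146 CPM at 1 h and 171, 172 and 179 CPM at time 0, a log2 fold change of -0.20 (SE 0.07, edgeR adjusted p = 0.0379). That call was lost on omission of any library other than 1 h replicate 1 (edgeR adjusted p from 0.0534 to 0.126). SLC29A3, the lysosomal nucleoside transporter ENT3, had 4.63, 6.90 and 5.02 CPM at 1 h and 9.36, 9.18 and 6.82 CPM at time 0, a log2 fold change of -0.61 (SE 0.20, edgeR adjusted p = 0.0365). Its groups overlapped, and the call was lost without 1 h replicate 1 or 3 or time 0 replicate 1 or 2 (edgeR adjusted p from 0.0841 to 0.115).

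4 of the 198 genes share an SLC symbol without being carriers: the scaffold proteins SLC9A3R1 and SLC9A3R2, SLC4A1AP and SLC7A6OS. SLC9A3R1 had a log2 fold change of -0.44 (SE 0.15, edgeR adjusted p = 0.0432) that was lost on omission of any library other than 1 h replicate 3 (edgeR adjusted p from 0.0530 to 0.136). SLC7A6OS had one of -0.33 (SE 0.10, edgeR adjusted p = 0.0249), lost without 1 h replicate 3 or time 0 replicate 1 or 3 (edgeR adjusted p from 0.0690 to 0.0925).

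By family number, 20 families held a member that rose, 10 a member that fell, and 3 held both (SLC16, SLC25 and SLC35). Rises also outnumbered falls among all genes tested, at 19.8% against 12.0%. SLC9 and SLC17 are among the 20 only through SLC9A2 and SLC17A9, which entered through their 1 h counts alone. Among the 18 families with at least 4 members, SLC6 had the highest median log2 fold change, 0.78, followed by SLC22 with 0.48, SLC12 with 0.42 and SLC7 with 0.35. Without SLC6A17 and SLC7A11, which entered only through their 1 h counts, the medians were 0.75 for SLC6 and 0.27 for SLC7, which then stood below SLC37 with 0.30. In SLC22 1 of 5 members was called, SLC22A15. SLC7 summed to 3836 ± 348 CPM at 1 h and 4218 ± 105 CPM at time 0, because SLC7A5 made up most of it, so its median and its sum differed in sign. SLC35, with 19 members, had 2 higher and 1 lower and a median of -0.05. SLC44, a choline-like family, had 0 of 4 members called in either direction, against 31.8% of all genes, and with 4 members no trait is read from this. Family medians rest on few members, and no test of one family against another was made.

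**Figure D4:**
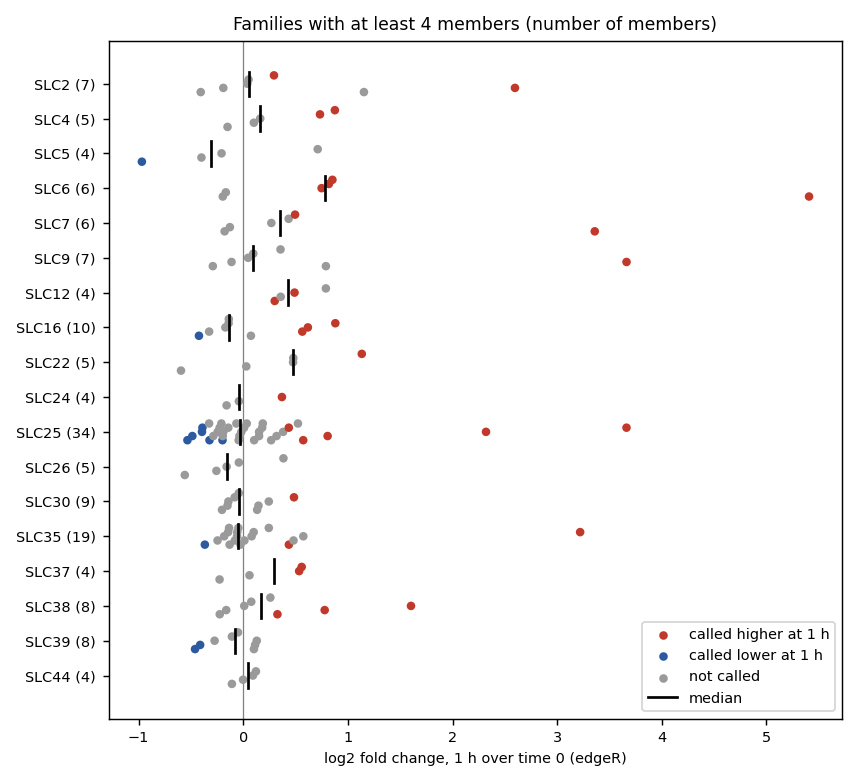
Fitted log2 fold change (1 h over time 0) of each tested member of the 18 families with at least 4 members, coloured by its call, with the median as a bar and the number of members in parentheses. SLC6 stands to the right with a median of 0.78, and SLC25 shows 5 members higher and 6 lower around a median of -0.03.

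Few members had another member close by in the genome. 7 pairs of neighbouring members lay within 50000 bases of each other in the listed coordinates. In 2 of these pairs both members rose, SLC38A1 with SLC38A2 and SLC45A3 with SLC41A1 (40776 bases apart on chromosome 26), and in none did both fall. How many pairs would be called alike without any tie was not tested. 41 of the 198 members overlapped another gene in the table, 24 of them a gene on the opposite strand, and strand use in counting is not given in the sources used here.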

How the data were processed

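The authors deposited 1 table of raw read counts per gene for the 6 libraries, with gene length (in bases), coordinates and symbols, and these columns were used. Per the labels' processing notes, which give no role or order, the tools were HISAT2 2.0.5, StringTie 1.3.3b, featureCounts 1.5.0-p3 and DESeq2 1.20.0. The libraries were poly-A selected and sequenced as paired reads. The genome build of the coordinates is not given in the sources used here. Columns of size-factor-scaled counts, group means, FPKM, and the authors' fold changes and p-values were not used. The deposited growth text gives the culture for both time points, and the study's methods were followed in placing time 0 directly after wounding.

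Counts were filtered with filterByExpr (12391 of 17262 genes), given TMM factors, fitted with robust glmQLFit and tested with glmQLFTest in edgeR 4.0.16 (R 4.3.3, limma 3.58.1), p-values being adjusted over every tested gene (Benjamini-Hochberg, threshold 0.05). No replicate term was used. Standard errors came from the quasi-likelihood F statistic. CPM values use TMM-scaled library totals, and 3 counts is the floor. The ratios of members with at most 10 counts at time 0 have exact (Clopper-Pearson) 95% intervals, which cover counting error only. The replicates are labelled biological and are separate samples of pooled explants per the study's methods, so p-values measure the spread between these pools. Replicates of a time point differed by more than sampling noise (chi-square per degree of freedom from 8.14 to 15.0).

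Alternatives were DESeq2 1.42.0, upper-quartile scaling, library totals, no filter, a minimum of 10 counts in all 6 libraries, a replicate block and leaving out each library. The steps were tested on simulated counts. Members, role lists and marker lists were chosen with earlier results of these data known. Roles follow family number, and the proteins that only share a symbol were set apart by name after the members were listed. Members named are a list of transporters of lens nutrition, redox, volume and pH control and of members visible in a supplementary list of the study, the 3 highest and 3 lowest fold changes among called members of each role group, the 10 highest by RPKM and those at the edge of the count rule. The paralogs SLC2A11, SLC25A4, SLC25A12 and SLC25A28 and the remaining called members were named after their values were seen. Of the 198 members, 190 matched a RefSeq symbol and 1 only a synonym. One item is not reported here.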

Additional observations from a re-analysis of the deposited data

How the results depend on the processing

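Of 198 members, edgeR called 37 higher and 19 lower. DESeq2 gave 35 and 20, no filter 37 and 23, and a minimum of 10 counts in all 6 libraries 33 and 19. Library totals gave 37 and 34, and upper-quartile scaling 30 and 45 with a median log2 fold change of -0.10. Over all 12391 genes tested, library totals gave 2201 and 2016, and upper-quartile scaling 1901 and 3400. Leaving out 1 library gave 31 to 36 members higher, 10 to 18 lower and medians from -0.02 to 0.03, with the lower count at 10 without time 0 replicate 1 and at 12 without time 0 replicate 3. Over all genes it gave 1965 to 2300 higher and 1035 to 1432 lower. The replicate block gave 35 higher and 15 lower, and 50 of the 56 calls held under it, all but those of SLC4A8, SLC17A9, SLC25A5, SLC25A32, SLC29A1 and SLC39A3. Deviations of same-numbered libraries correlated at -0.077, 0.011 and -0.043. The labels give only a replicate number, and with 3 libraries per time point these correlations cannot settle whether same-numbered libraries were paired. Uncalled genes near 0 changed sign. SLC25A6 was -0.0078 with DESeq2, -0.13 with upper-quartile scaling, -0.0366 with library totals and -0.0118 with no filter. Upper-quartile scaling gave -0.045 for SLC11A2, -0.0608 for SLC16A7, -0.0831 for SLC2A1, -0.0302 for SLC25A28, -0.0533 for BSG and -0.021 for SLC39A14. With a library left out the log2 fold change ran from -0.10 to 0.0098 for SLC1A4, -0.0292 to 0.0268 for SLC25A6, -0.013 to 0.18 for SLC25A28, -0.0734 to 0.24 for SLC16A7, -0.11 to 0.39 for SLC4A4, -0.0033 to 0.12 for SLC2A1, -0.15 to 0.13 for SLC40A1 and -0.70 to 0.33 for SLC9A3. The cause was not tested. Over single genes and role groups, 976 values held, 111 fell short of the threshold, 8 passed it newly, 38 counts moved and 22 values changed sign. Members near the 10-count rule carry wide counting intervals.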

Other observations

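Carriers now counted in the solute carrier superfamily under other symbols were measured apart from the 198. Of 32 such symbols 25 were in the table and 20 were tested, with 4 higher and 1 lower and a median log2 fold change of 0.04. Among all genes tested, 19.8% were higher and 12.0% lower. MFSD2A, a carrier of lysophospholipids with the fatty acid DHA, had 758, 567 and 599 counts at 1 h and 222, 301 and 318 at time 0, a rise of 1.09 (SE 0.14, edgeR adjusted p = 1.79e-04). MFSD8, a lysosomal membrane protein, had 350, 239 and 281 counts at 1 h and 137, 144 and 116 at time 0, a rise of 1.01 (SE 0.17, edgeR adjusted p = 9.25e-04). RHBG (0.57) and LETM1 (0.27) were also called higher, but RHBG lost its call by DESeq2 (adjusted p = 0.0589) and without any library but 1 h replicate 2 or 3 (edgeR adjusted p from 0.0838 to 0.212), and LETM1 by DESeq2 (adjusted p = 0.106) and without any library but 1 h replicate 2 (edgeR adjusted p from 0.0758 to 0.148). MTCH1, an outer mitochondrial membrane protein, fell, with 98, 94 and 91 counts at 1 h and 172, 147 and 170 at time 0, a log2 fold change of -0.91 (SE 0.16, edgeR adjusted p = 0.00121).

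Proteins that power or regulate solute carriers were listed too, and of 25 symbols 13 were in the table and 12 were tested. Of these, 7 were higher and 2 lower, beside 19.8% higher and 12.0% lower among all genes tested. The 2 lower were FXYD6 (log2 fold change -0.41, edgeR adjusted p = 0.00287) and NPTN (-0.34, edgeR adjusted p = 0.00265). The sodium pump, which keeps the gradient that sodium-coupled carriers use, rose in its beta subunits ATP1B1 (log2 fold change 0.85, edgeR adjusted p = 5.41e-05) and ATP1B3 (0.52, edgeR adjusted p = 4.12e-04). SGK1, a kinase known to raise the activity of many carriers in mammals, rose by 7.49 on the log2 scale (SE 0.47, edgeR adjusted p = 1.38e-04). TXNIP, which restrains glucose uptake, had 61, 117 and 155 counts at 1 h and 61, 49 and 60 at time 0, and its call (log2 fold change 0.83, edgeR adjusted p = 0.0439) was lost with either other scaling and without any library but 1 h replicate 1 (edgeR adjusted p from 0.0716 to 0.192). BSG, the partner of the monocarboxylate carriers SLC16A1 and SLC16A3, was not called (0.08, edgeR adjusted p = 0.399, and -0.05 with upper-quartile scaling). Both lists were drawn up with earlier results of these data known, so the counts are a description.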
